A study of Mus musculus with 6 samples.

Results

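The miR-379~410 cluster is a run of miRNA hairpins on chromosome 12, inside the imprinted Dlk1-Dio3 region, in the RefSeq annotation of GRCm38.p6. Its members were chosen by miRNA number, any arm, from the series' table of counts per mature miRNA. They were 51 of the 707 mature miRNAs in the table, 22 from 5p arms and 29 from 3p arms. They came from 32 of the 37 hairpin names looked for, and miR-380, miR-541, miR-666, miR-667 and miR-679 had no entry. The study sequenced small RNA of exosomes, vesicles that cells release, from the supernatant of cultured C57BL/6 mouse bone marrow-derived macrophages. It compared 3 libraries of wild-type (WT) mice with 3 of Roquin-1 san:san mice, homozygous for the sanroque allele of Roquin-1, which binds stem-loop structures of messenger RNAs and speeds up their decay. The labels name no treatment, age or time, and both genotypes share the strain and the source. They do not say whether the 3 libraries of a genotype came from separate mice or cultures, so p-values measure only the spread between these libraries, which may be technical. The Roquin-1 message is not a miRNA and gives no check of the genotype labels here.

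Hairpins of this cluster are processed from long noncoding transcripts of the maternally inherited allele, with the noncoding gene Mirg as their host. In each hairpin Drosha and Dicer release a duplex of a 5p and a 3p arm, and an Argonaute protein keeps 1 arm and uses bases 2 to 8 of it, the seed, to find target messages. The cluster is best known from brain, embryo and placenta, where it is abundant. Among its members, miR-134 restricts the growth of dendritic spines and miR-369-3p can bind an AU-rich element in the message of tumour necrosis factor. The miR-376 hairpins are known for A-to-I editing of their seeds in brain.

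Mature sequences from RefSeq (GRCm38.p6) were matched for 48 of the 51 members and are printed 5′ to 3′ with the seed in capitals. The first set shows members with a shared or almost shared seed, because such miRNAs can share reads or predicted targets.
miR-376c-5p: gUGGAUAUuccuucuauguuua
miR-376b-5p: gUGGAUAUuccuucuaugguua
miR-379-3p: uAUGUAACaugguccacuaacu
miR-411-3p: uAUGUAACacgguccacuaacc
miR-379-5p: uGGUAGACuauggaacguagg
miR-411-5p: uAGUAGACcguauagcguacg
miR-381-3p: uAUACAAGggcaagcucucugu
miR-300-3p: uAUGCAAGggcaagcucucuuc
miR-299a-5p: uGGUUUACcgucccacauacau
miR-299b-5p: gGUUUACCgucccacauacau

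With positions counted from 1 at the 5′ end, miR-376b-5p and miR-376c-5p shared the seed UGGAUAU and differed by the single substitution G19U. miR-379-3p and miR-411-3p shared the seed AUGUAAC and differed by U10C and U22C. The 5p arms of the same 2 hairpins differed at 7 bases, of which G2A lay in the seed. miR-300-3p differed from miR-381-3p by G4A in the seed and by U21G and C22U near the 3′ end. miR-299b-5p lay whole inside miR-299a-5p. The hairpins miR-299a and miR-299b are annotated on opposite strands of the same place, so a read of either arm carries both names, and the counts of the 2 names were identical in all 6 libraries. The second set shows the other members whose levels or calls carry the results.
miR-323-3p: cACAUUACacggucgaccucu
miR-494-3p: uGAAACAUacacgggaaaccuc
miR-495-3p: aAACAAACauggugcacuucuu
miR-654-3p: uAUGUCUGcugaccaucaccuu
miR-382-5p: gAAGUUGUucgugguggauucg
miR-409-5p: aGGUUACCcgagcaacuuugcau
miR-409-3p: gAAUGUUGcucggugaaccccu
miR-369-5p: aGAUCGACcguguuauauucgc
miR-369-3p: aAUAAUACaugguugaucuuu
miR-410-3p: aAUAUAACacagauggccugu

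The depth of the libraries differed with genotype. Total counts were 12447 to 28884 in WT and 126098 to 185901 in san:san, so that 1 count was worth 28.1 to 70.4 CPM (normalised read counts, scaled with edgeR's TMM factors) in WT and 6.38 to 10.4 in san:san. Shares of several lists of marker miRNAs, of macrophages and of other cells, moved with genotype as well. Calls in these lists stand beside 34.6% higher and 29.5% lower among all 254 miRNAs tested. Macrophage and myeloid miRNAs held 5.64% to 6.67% of counts in WT and 10.9% to 12.3% in san:san (6 of 8 tested higher, 0 lower). Erythroid miRNAs held 3.84% to 6.25% and 15.6% to 17.9% (4 of 5 higher, 0 lower), and stromal miRNAs 1.14% to 2.12% and 1.36% to 1.46% (3 of 9 higher, 1 lower). The counts of miR-486a-5p and miR-486b-5p were identical, and both names enter the erythroid share and calls. Likewise miR-199a-3p and miR-199b-3p, with identical counts, both enter the stromal share. Lymphocyte miR-150 held 0.412% to 0.492% and 1.38% to 1.92% (1 of 1 higher), endothelial and platelet miR-126a 1.82% to 3.69% and 3.37% to 6.96% (2 of 2 higher), and liver miR-122 0.501% to 0.707% and 0.439% to 0.600% (1 of 2 higher). Neural miRNAs held 0.271% to 0.434% in WT and 0.102% to 0.119% in san:san (1 of 4 higher, 3 lower), with no entry for miR-124. Muscle and epithelial miRNAs stayed at or under 0.0312% in every library. The part of depth and of these cells in the results on the cluster was not tested. The labels name macrophages as the source, and whether vesicles of other cells were present was not tested either. Fewer vesicles of a kind and less RNA per vesicle cannot be told apart in these libraries.

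The cluster as a whole held a larger share of the san:san libraries. Its counts were 145, 316 and 276 in WT replicates 1 to 3 and 3635, 3047 and 2351 in san:san replicates 1 to 3. These are 1.16%, 1.09% and 1.27% of all counts in WT against 1.96%, 1.90% and 1.86% in san:san. Every san:san library lay above every WT library, also beyond the counting error of each: the exact 95% binomial intervals, which cover counting error only, reached 1.43% at most in WT and began at 1.79% or higher in san:san. The mean share rose from 1.18% ± 0.0879 (SD, n = 3) to 1.91% ± 0.0460 (SD, n = 3), a ratio of 1.62, and summed TMM-scaled CPM went from 9730 ± 743 to 23585 ± 677, a ratio of 2.42. No p is given for these sums, because the members were chosen with results of these data known. Thinned to the depth of the smallest library, 12447 counts, the WT libraries held 145, 133 and 155.5 cluster counts (median of 20 draws) and the san:san libraries 245.5, 239.5 and 234.5.

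The neighbouring miRNAs of the same region, a list of the other Dlk1-Dio3 hairpin numbers with 12 entries in the table, had a share of 0.125% ± 0.0154 in WT and 0.246% ± 0.0152 in san:san (SD, n = 3), a ratio of 1.96. Of the 5 neighbours that were tested, 4 were higher in san:san (34.6% of all tested miRNAs) and 0 lower. These were miR-127-3p (log2 2.38, edgeR adjusted p = 2.12e-05), miR-433-3p (1.97, 0.0198), miR-136-3p (1.69, 0.00126) and miR-493-5p (0.91, 0.0110), while miR-136-5p had 0.56 and did not pass (0.363). With total counts as library sizes 2 of the 5 were higher (19.3% of all tested), and 2 with DESeq2 (25.2%). The cluster outnumbered these neighbours by ratios of 10.4, 9.03 and 8.90 in WT against 8.41, 7.77 and 7.10 in san:san, which is lower in every san:san library.

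**Figure D1:**
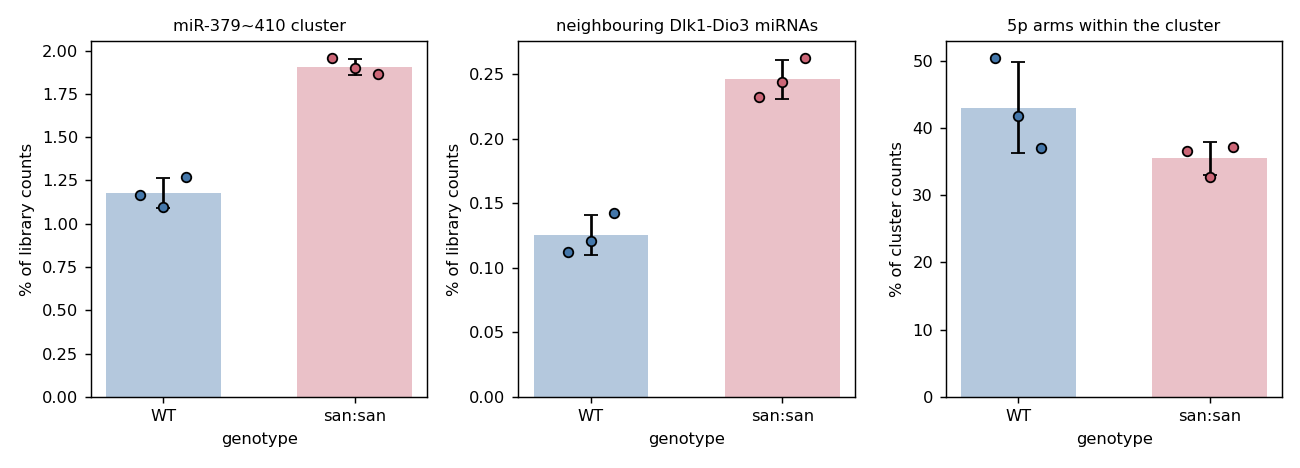
Share of each library's counts in the cluster (left, %), in the neighbouring Dlk1-Dio3 miRNAs (middle, %), and share of the cluster's counts that came from 5p arms (right, %). Points are libraries, bars the mean of 3 libraries and error bars the SD; the 2 left panels show no overlap between genotypes (cluster 1.09% to 1.27% in WT, 1.86% to 1.96% in san:san), and the right panel does.

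Single members were tested with edgeR's quasi-likelihood test over all miRNAs that reached the filter on low counts. Of the 51 members 28 were tested: 18 were higher in san:san at an adjusted p under 0.05, 0 were lower and 10 did not pass. Of all 254 miRNAs tested, 34.6% were higher. No member was lower at an unadjusted p under 0.05 either, nor with DESeq2. All 28 fitted log2 fold changes were above 0 (57.9% of all tested), between 0.44 and 4.21 with a median of 1.22, against a median of 0.30 over all tested miRNAs. In 22 of the 28 every san:san library lay above every WT library (39.8% of all tested). These counts are descriptions, since 13 of the 28 members were under the filter's minimum (129 CPM by library total) in at least 1 WT library and entered through the deeper and higher san:san libraries. Of the 15 members that reached it in every WT library, 13 were called, and when all miRNAs were held to that stricter rule, an alternative added after the data were seen, 14 of 15 members were higher against 35.0% of the 206 miRNAs tested.

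The number of calls depended on scaling and on 1 library. With total counts as library sizes 7 members were higher (19.3% of all tested) and 0 lower, while all tested miRNAs split into 49 higher and 101 lower, against 88 and 75 (29.5% lower, 64.2% either way) with TMM. DESeq2 called 9 members (25.2% of all tested), RLE factors 13 (29.9%) and TMMwsp factors 16 (33.1%). With no filter 20 of 51 were higher (14.4%), with at least 10 counts in every library 2 of 3 (34.0%) and with identical entries merged 17 of 27 (35.1%). In libraries thinned to equal depth 4 of 6 were higher (28.6%), as medians of the counts over 20 draws. By their median adjusted p over the draws, only miR-409-3p, miR-376c-5p and miR-487b-3p passed there. Without WT replicate 2, the deepest WT library, 8 of 31 were higher (23.8%). Without WT replicates 1 and 3 they were 18 (30.7%) and 16 (29.6%) of 31, and without san:san replicates 1, 2 and 3 they were 13 (36.2%), 13 (38.7%) and 14 (36.2%) of 16. No member was lower in any of these. The median over all tested miRNAs moved from 0.30 with TMM to 0.04 with RLE factors and to -0.30 with total counts. A rescaling shifts all miRNAs almost alike, so the members' median keeps nearly the same distance from it by construction (0.92, 0.93 and 0.93). That distance was 0.69 without WT replicate 2 and 0.85 with the replicate block.

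**Figure D2:**
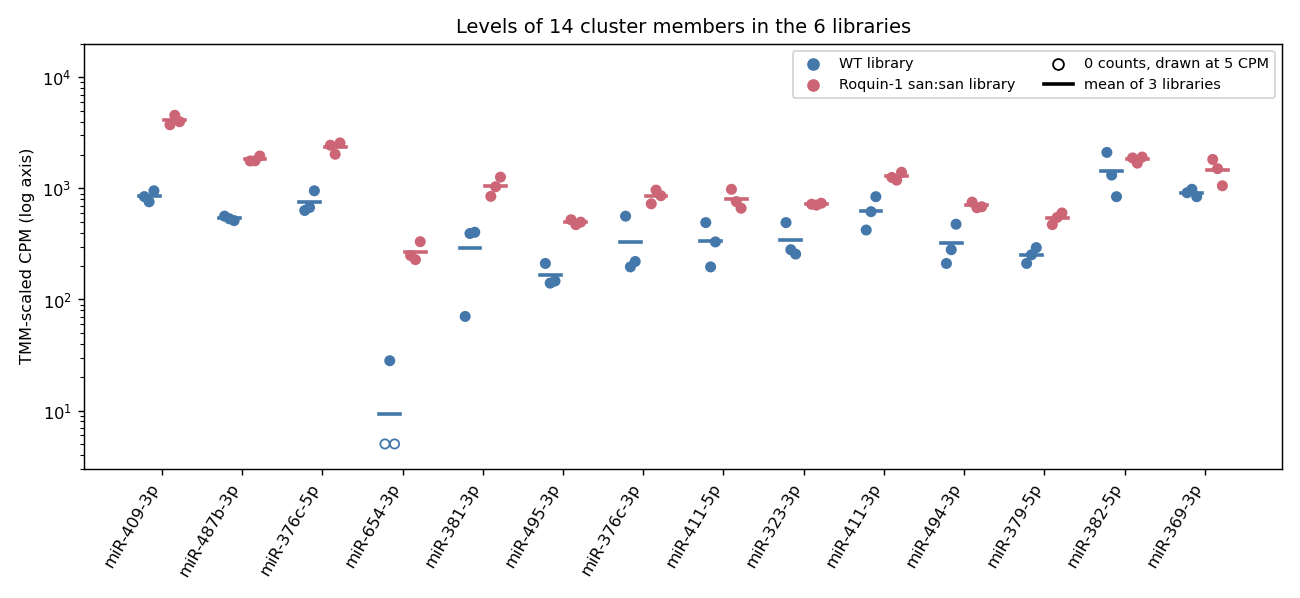
Level of 14 members in each library (TMM-scaled CPM, log axis): the 12 with the smallest adjusted p, then miR-382-5p and miR-369-3p. Points are libraries, lines the mean of 3 and open circles libraries with 0 counts; of these 14 the genotypes overlap for miR-382-5p alone.

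miR-409-3p was the most abundant member in san:san. It had 12, 27 and 26 counts in WT against 587, 599 and 385 in san:san, or 844.4, 758.2 and 952.9 CPM against 3745, 4560 and 3990. The lowest san:san library lay well above the highest WT library. The mean went from 852 ± 97.6 to 4099 ± 418 CPM (SD, n = 3), a 4.83-fold rise (log2 2.27 ± 0.23 SE, adjusted p = 1.51e-06), and the call held in all 16 alternatives, from log2 1.67 with total counts to 2.41 with no filter.

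miR-487b-3p, from the middle of the cluster, had 8, 19 and 14 counts in WT against 277, 233 and 189 in san:san. Its CPM were tight within each genotype, 537 ± 25 in WT and 1833 ± 109 in san:san, and did not overlap. The rise was 3.43-fold (log2 1.78 ± 0.25, adjusted p = 2.80e-05). Its 5p partner had 0 counts in WT and 4 in san:san, so nearly all reads of this hairpin came from the 3p arm.

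Both arms of miR-376c rose. This miRNA has been reported to repress Acvr1c, a receptor for Nodal, in trophoblast cells. The 5p arm had 9, 24 and 26 counts in WT against 384, 267 and 248 in san:san, and 753 ± 174 and 2351 ± 282 CPM. Every san:san library exceeded every WT library, with a 3.07-fold rise (log2 1.62 ± 0.25, adjusted p = 6.63e-05). The 3p arm had 8, 7 and 6 counts in WT, or 563, 197 and 220 CPM, against 727, 967 and 860 CPM in san:san. WT replicate 1, the shallowest library, lay above the other two WT libraries, but this arm too did not overlap between genotypes and rose 3.04-fold (1.60 ± 0.36, 0.00136).

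miR-376b-5p, which differs from miR-376c-5p by G19U, had 1, 4 and 4 counts in WT against 46, 26 and 45 in san:san. It lay higher in each san:san library (log2 1.42, adjusted p = 0.0439), but the call was lost without WT replicate 1 (adjusted p = 0.0785) and without WT replicate 2 (0.167). It was also lost with RLE factors (0.0879), TMMwsp factors (0.0555), total counts (0.254) and DESeq2 (0.109). miR-376a-5p, with 3, 4 and 2 counts in WT against 22, 31 and 25 in san:san, overlapped between genotypes and did not pass (0.81, 0.226). The reads of miR-376b-5p and miR-376c-5p may have been split between the names, since how the authors' counting treated such reads is not given in the sources used here.

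miR-381-3p had 1, 14 and 11 counts in WT, and its san:san levels were 849, 1035 and 1264 CPM. The mean was 289 ± 189 CPM in WT, with WT replicate 1 far below the other two, and 1049 ± 208 in san:san, without overlap (log2 1.65 ± 0.36, adjusted p = 0.00120). The related miR-300-3p, next to it on the chromosome, had 1, 6 and 4 counts in WT against 34, 34 and 21 in san:san. It lay at 129 ± 51.5 and 231 ± 24.0 CPM, and although its genotypes did not overlap, it did not pass (0.71 ± 0.49, 0.221).

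miR-495-3p had 3, 5 and 4 counts in WT against 82, 62 and 48 in san:san, and 166 ± 39.1 and 498 ± 25.6 CPM. The genotypes were well apart (3.16-fold, log2 1.66 ± 0.37, adjusted p = 0.00136). miR-654-3p was almost unseen in WT, with 0, 1 and 0 counts, and had 39, 30 and 32 in san:san, or 249, 228 and 332 CPM. The ratio of its summed counts, corrected for library size, was 20.3 with a 95% counting interval of 3.55 to 808, which covers counting error only. Its fitted log2 fold change of 4.21 ± 0.89 (adjusted p = 9.23e-04) rests on that single WT count: without WT replicate 2 the WT libraries hold 0, and the fitted value was 7.49 (0.00705), which is no bound.

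At the start of the cluster, miR-379 and miR-411 gave 3 calls from 4 arms. miR-379-5p had 3, 9 and 8 counts in WT against 74, 72 and 58 in san:san (252 ± 41.1 and 540 ± 64.8 CPM), without overlap, and rose by log2 1.05 ± 0.32 (adjusted p = 0.0109). miR-411-5p had 7, 7 and 9 counts in WT, and levels of 983, 761 and 663 CPM in san:san (340 ± 148 and 802 ± 164 CPM), also without overlap (1.41 ± 0.35, 0.00273). The 3p arms carry the common seed. miR-411-3p had 6, 22 and 23 counts in WT against 197, 156 and 135 in san:san (628 ± 211 and 1281 ± 108 CPM) and rose 1.95-fold (0.96 ± 0.26, 0.00545). miR-379-3p had 3, 12 and 11 counts in WT against 92, 71 and 44 in san:san (317 ± 97.6 and 528 ± 66.4 CPM) and did not pass (0.67 ± 0.31, 0.0777), although every san:san library was above every WT library. It passed when the filter had to be reached in every WT library (0.0302). Whether these 2 arms differ in change was not tested. Without WT replicate 2 the calls of miR-379-5p (adjusted p = 0.0894), miR-411-5p (0.0780) and miR-411-3p (0.0676) were lost. With total counts they were lost as well (0.256, 0.0670 and 0.275), and with DESeq2 those of miR-379-5p (0.113) and miR-411-3p (0.0504); in thinned libraries miR-411-3p did not pass (0.0895). The shared counts of miR-299a-5p and miR-299b-5p were 3, 9 and 10 in WT against 82, 73 and 64 in san:san, a rise of log2 1.01 (0.0121) that is 1 result under both names and was also lost without WT replicate 2 (0.123), with RLE factors (0.0539), total counts (0.284) and DESeq2 (0.118).

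miR-323-3p had 7, 10 and 7 counts in WT against 113, 93 and 71 in san:san. Its level was nearly equal in the 3 san:san libraries, 722 ± 14 CPM, above all WT libraries at 343 ± 130 (log2 1.19 ± 0.30, adjusted p = 0.00315), and the call was lost with total counts as library sizes (0.59, 0.103). miR-494-3p had 3, 10 and 13 counts in WT against 118, 88 and 66 in san:san. It lay at 322.8 ± 138 and 702 ± 44.4 CPM without overlap (1.06 ± 0.31, 0.00772), and the call was lost without WT replicate 2 (adjusted p = 0.117), with total counts (0.234) and with DESeq2 (0.0786).

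Of the remaining called members, miR-154-3p had 3, 4 and 2 counts in WT against 43, 54 and 37 in san:san, with no overlap in CPM (log2 1.57, adjusted p = 0.0129). Its call was lost without WT replicate 2 (1.42, 0.0903), without WT replicate 3 (1.30, 0.0532), with total counts (0.97, 0.114) and with DESeq2 (1.33, 0.0580). miR-382-3p had 2, 0 and 5 counts in WT against 36, 53 and 36 in san:san (1.83, 0.0324). Its call was lost with RLE factors (0.0544), total counts (0.152) and DESeq2 (0.0559), and the fold change moved to 0.87 (0.251) without WT replicate 2 and to 2.96 (0.00768) without WT replicate 3. miR-369-3p, the member reported to bind the AU-rich element of the tumour necrosis factor message, was abundant in both genotypes. It had 13, 35 and 23 counts in WT against 286, 198 and 102 in san:san, or 915, 983 and 843 against 1825, 1507 and 1057 CPM. The 2 genotypes did not overlap, but the lowest san:san library was close to the highest WT library, and the spread in san:san was wide (913 ± 70.0 and 1463 ± 386 CPM, 0.68 ± 0.27, 0.0400). The call was lost in 11 of 16 alternatives, among them leaving out each of WT replicates 1 (0.0761), 2 (0.161) and 3 (0.104) and san:san replicates 1 (0.173) and 2 (0.0524).

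The most abundant member in WT did not pass. miR-382-5p had 30, 47 and 23 counts in WT against 295, 222 and 185 in san:san, or 2111, 1320 and 843 CPM against 1882, 1690 and 1917. WT replicate 1 lay above all 3 san:san libraries and WT replicate 3 far below them, so the genotypes overlapped. The means were 1425 ± 640 and 1830 ± 122 CPM (log2 0.44 ± 0.27, adjusted p = 0.171), and with total counts as library sizes the sign turned (-0.15). Without WT replicate 1 it passed (0.64, adjusted p = 0.0250). miR-410-3p, at the end of the cluster, had 1, 4 and 7 counts in WT against 31, 31 and 27 in san:san (146 ± 97.7 and 238 ± 41.1 CPM). It overlapped between genotypes (0.59 ± 0.52, 0.325) and was at -0.0136 with total counts and at 1.22 (0.129) without WT replicate 3.

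The 5p arms of miR-409 and miR-369 were much rarer than their 3p partners. miR-409-5p had 4, 7 and 1 counts in WT against 45, 41 and 34 in san:san (172 ± 124 and 317 ± 32.9 CPM), with the highest WT library just under the lowest san:san library (log2 1.00 ± 0.52, adjusted p = 0.107). miR-369-5p had 3, 0 and 4 counts in WT against 60, 22 and 20 in san:san (119 ± 108 and 252 ± 115 CPM) and overlapped (1.45 ± 0.77, 0.116). It was at 0.50 (0.597) without WT replicate 2 and passed when no filter was used (0.0289). The other tested members that did not pass were miR-543-3p (1.57, 0.0557), miR-381-5p (1.25, 0.186) and miR-539-5p (0.76, 0.295). Their values moved with single WT libraries. miR-381-5p passed without WT replicate 1 (3.15, 0.00913) and was at 0.58 and 0.60 without WT replicates 2 and 3. miR-539-5p was at 1.89 (0.123) without WT replicate 2 and miR-543-3p at 2.25 (0.0511) without WT replicate 3.

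Another 23 members were too rare to reach the filter. For 11 of them no WT library had a count. miR-485, a regulator of the synaptic vesicle protein SV2A in neurons, had 0, 1 and 3 counts of its 3p arm in WT against 17, 17 and 13 in san:san, a ratio of summed counts corrected for library size of 2.36 (95% counting interval 0.861 to 9.0). Its 5p arm had 0 counts in WT against 8, 11 and 7 in san:san, and the 95% counting interval of the ratio began at 1.32. When no filter was used, miR-485-5p passed (log2 5.45, edgeR adjusted p = 0.0202), a fitted value that rests on 0 counts in WT. The counting intervals of both arms cover counting error only, not the spread between libraries, so they do not show a difference between genotypes. miR-758-3p had 0 counts in WT against 8, 4 and 8 in san:san, and its interval began at 0.990, so it includes 1.
For miR-1197-3p the summed counts were 3 in WT and 42 in san:san (ratio 2.81, interval 0.897 to 14.2). For miR-412-3p they were 2 and 22 (2.21, 0.542 to 19.3), and for miR-412-5p 6 and 28 (0.936, 0.380 to 2.76). For miR-376a-3p they were 1 and 16 (3.21, 0.498 to 135). The intervals of these 4 include 1 as well, so no difference was detectable at this depth. The arm shared by miR-299a-3p and miR-299b-3p had 4 and 13 counts (0.652). The rest had at most 15 counts over all 6 libraries.

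By position, the rise in share was not limited to 1 end of the cluster, but the calls depended on the scaling. The 37 hairpins were split by their order on the chromosome into a first segment (12 places, miR-379 to miR-1193), a middle segment (12, miR-666 to miR-539) and a last segment (13, miR-544 to miR-410). In the first segment 7 of 8 tested members were higher, with a median log2 fold change of 1.03, against 34.6% and 0.30 over all tested miRNAs. The names miR-299a and miR-299b, with identical counts, both enter this segment's numbers and its share. In the middle segment 7 of 12 were higher (median 1.58), and in the last 4 of 8 (1.23). With total counts as library sizes no member of the first segment passed, and miR-411-5p came closest (edgeR adjusted p = 0.0670). Those that passed were miR-495-3p, both arms of miR-376c, miR-654-3p, miR-381-3p and miR-487b-3p of the middle segment and miR-409-3p of the last. DESeq2 called these and, in the first segment, miR-411-5p (adjusted p = 0.0219) and miR-323-3p (0.0457). The tested members that reached the filter in every WT library were 8 of 8 in the first, 4 of 12 in the middle and 3 of 8 in the last segment. As shares of all counts, the first segment went from 0.351% ± 0.0955 to 0.486% ± 0.0222 (SD, n = 3), a ratio of 1.38. The middle segment went from 0.329% ± 0.0222 to 0.665% ± 0.0273, a ratio of 2.02, and the last from 0.496% ± 0.0715 to 0.755% ± 0.0536, a ratio of 1.52. In each segment all san:san libraries lay above all WT libraries, narrowly in the first, where the highest WT share was 0.460% and the lowest san:san share 0.468%. Across the 28 tested members, which share the same 6 libraries, Spearman's rho of the fold change with the order of hairpins was 0.03 and with the mean CPM 0.05. No test was made of a difference between segments.

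**Figure D3:**
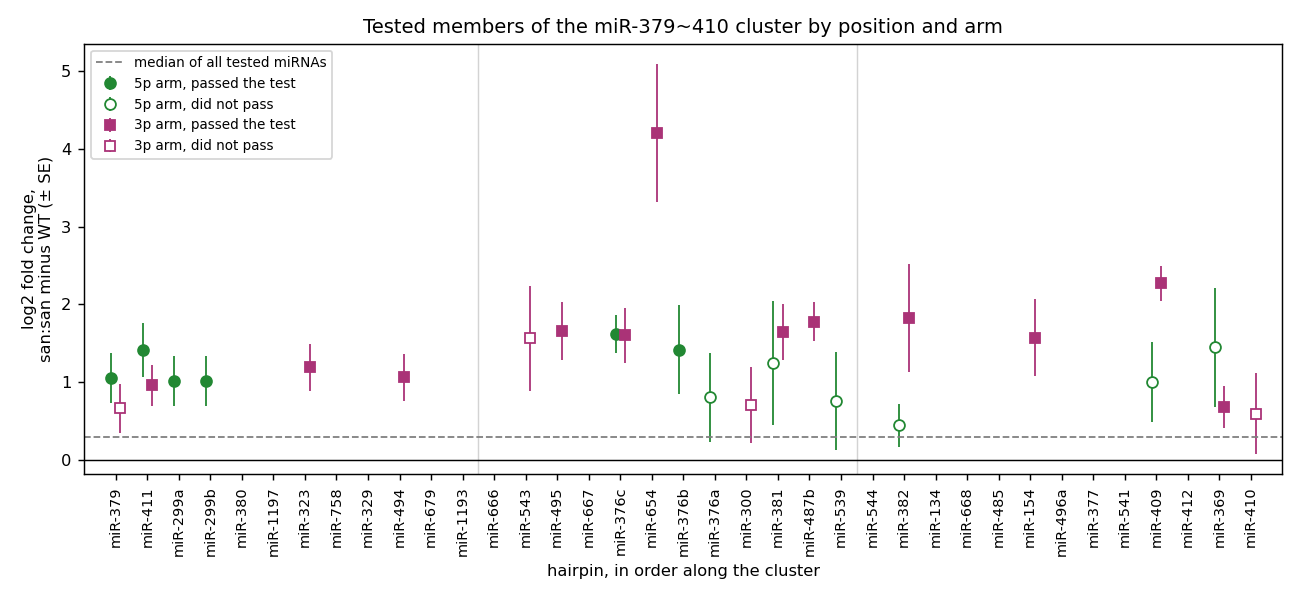
log2 fold change (san:san minus WT) with its standard error for the 28 tested members, by hairpin in chromosomal order (x axis, ticks without a point have no tested member); circles are 5p arms, squares 3p arms, filled where the adjusted p is under 0.05, grey lines separate the 3 segments. All points lie above 0 and above the dashed median of all tested miRNAs (0.30), and miR-654-3p, with 1 count in WT, is the highest at 4.21.

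By arm, 12 of 16 tested 3p members and 6 of 12 tested 5p members were higher, against 39.1% of the 115 3p arms and 34.8% of the 115 5p arms tested in the whole table. The called 5p members include both miR-299a-5p and miR-299b-5p, which have identical counts. The median log2 fold change was 1.57 for 3p and 1.03 for 5p members, against 0.45 and 0.38 over all tested 3p and 5p arms. These counts and medians are descriptions, since 13 of the 28 tested members, of both arms, were under the filter in at least 1 WT library. Among those that reached it in every WT library, miR-379-3p was the only 3p and miR-382-5p the only 5p member not called. Whether 3p members as a group changed more than 5p members was not tested. The share of all counts in 3p members went from 0.672% ± 0.115 to 1.23% ± 0.0533 (ratio 1.83), and that in 5p members from 0.504% ± 0.0716 to 0.676% ± 0.0497 (ratio 1.34). Within the cluster 5p arms made up 50.3%, 41.8% and 37.0% of counts in WT against 36.6%, 32.7% and 37.1% in san:san. These ranges overlapped, through WT replicate 3 and san:san replicate 3.

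The arm ratio within a hairpin does not depend on library scaling, and it was tested with limma over the 41 hairpins with enough counts of both arms, of which 34.1% changed. None of the 4 cluster hairpins among them passed, and none reached an unadjusted p under 0.05. For miR-379 the log2 of 5p over 3p changed by 0.32 ± 0.33 SE (95% interval -0.48 to 1.11, adjusted p = 0.461), for miR-411 by 0.23 ± 0.55 (-1.10 to 1.55, 0.769) and for miR-376c by 0.13 ± 0.56 (-1.22 to 1.48, 0.849). These intervals still allow changes of more than 2-fold, so equal arm use was not shown. For miR-409 the change was -1.02 ± 0.76 (-2.86 to 0.82, 0.339). Its log2 ratios were -1.55, -1.90 and -4.40 in WT against -3.65, -3.81 and -3.45 in san:san, so that WT replicate 3, with 1 count of the 5p arm, lay apart from the other two. Without it the change was -1.91 with an adjusted p of 0.00474.

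**Figure D4:**
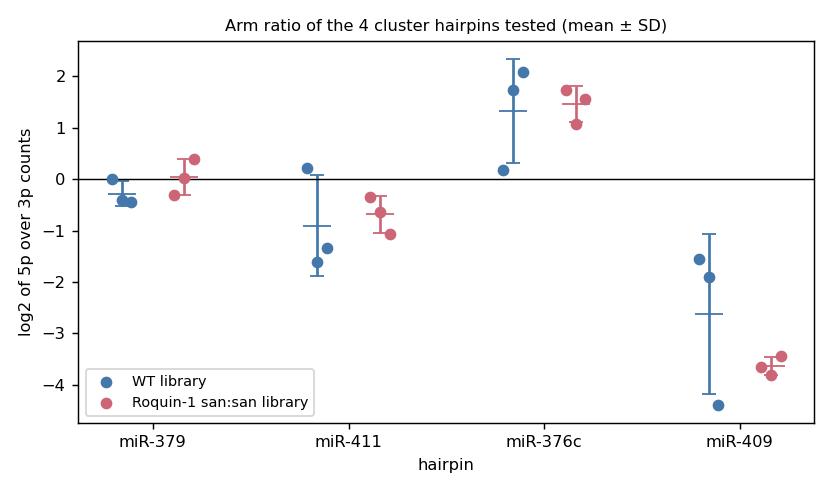
Ratio of 5p to 3p counts on the log2 scale (with a small count added in proportion to library size) in each library for the 4 cluster hairpins tested; points are libraries, bars the mean and SD of 3. WT and san:san overlap for all 4 hairpins, and WT replicate 3 of miR-409 lies lowest of all at -4.40.

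The pooled counts show which arm dominated. miR-376c was mainly 5p (73.8% of 80 counts in WT, 73.5% of 1223 in san:san), as was miR-382 (93.5% of 107 and 84.9% of 827). miR-381 (16.1% of 31 and 13.7% of 453), miR-369 (8.97% of 78 and 14.8% of 688) and miR-409 (15.6% of 77 and 7.10% of 1691) were mainly 3p. miR-379 was close to even (43.5% and 49.6%). In these pooled counts the dominant arm was the same in both genotypes. The exact 95% intervals, which cover counting error only, were 8.32% to 25.6% in WT and 5.92% to 8.43% in san:san for miR-409. Those of miR-382 were 87.0% to 97.3% and 82.3% to 87.3%. The intervals overlapped only narrowly for both hairpins, and such overlap does not show that arm use was equal.

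The makeup of the cluster, a measure independent of library scaling, differed between genotypes for some members. miR-409-3p made up 8.28%, 8.54% and 9.42% of cluster counts in WT against 16.1%, 19.7% and 16.4% in san:san, so that its mean part went from 8.75% ± 0.598 to 17.4% ± 1.96 (SD, n = 3), a ratio of 1.99. miR-487b-3p went from 5.53% ± 0.470 to 7.77% ± 0.235. Both were higher in every san:san library than in any WT library. miR-382-5p made up 20.7%, 14.9% and 8.33% in WT against 8.12%, 7.29% and 7.87% in san:san, and miR-369-3p 8.97%, 11.1% and 8.33% against 7.87%, 6.50% and 4.34%. These 2 were lower in every san:san library, narrowly so, and WT replicate 3 was the WT library nearest to san:san for both. Parts of a fixed sum depend on each other, so a larger part of miR-409-3p makes the other parts smaller. The mean CPM was higher in san:san for miR-382-5p (1425 in WT and 1830, overlapping) and for miR-369-3p (913 and 1463). Whether their parts would be lower with miR-409-3p left out was not tested. The other abundant members, miR-376c-5p, miR-411-3p, miR-381-3p, miR-376c-3p, miR-411-5p and miR-323-3p, overlapped between genotypes. As shares of all counts, the 18 called members went from 0.804% ± 0.104 to 1.51% ± 0.0347 and the other 33 from 0.372% ± 0.0464 to 0.400% ± 0.0230, a split that the calls themselves made. No test was made of these parts, which come from the same counts as the calls and are no separate support for them.

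**Figure D5:**
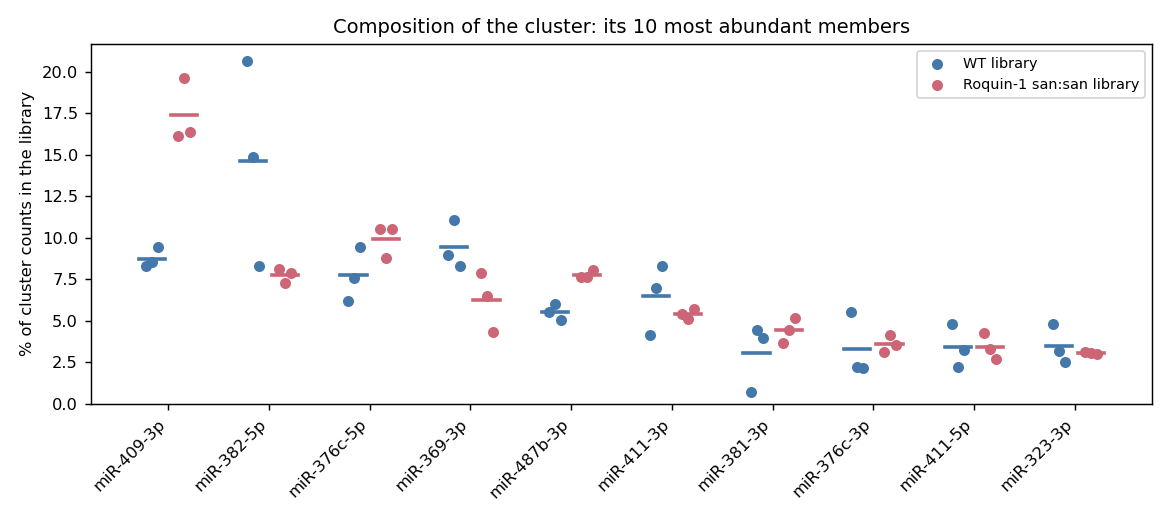
Part of the cluster's counts (%) held by its 10 most abundant members in each library; points are libraries and lines the mean of 3. miR-409-3p and miR-487b-3p lie higher, and miR-382-5p and miR-369-3p lower, in all san:san libraries than in all WT libraries (miR-409-3p 8.28% to 9.42% against 16.1% to 19.7%).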

How the data were processed

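The authors deposited whole-number counts per mature miRNA for 3 WT and 3 san:san libraries, and these counts were used. The deposited per-sample TPM columns were not used. Per the labels' protocols, RNA was taken up in Trizol and miRNA libraries followed standard Illumina procedure; the labels also name an mRNA kit. Per the submitters' processing notes the genome build was mm9, so GRCm38 served for order and sequence, not coordinates. The aligner and trimming settings were not given in the sources used here. Members, lists and tests were chosen with earlier results of these data known.

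All 707 miRNAs entered edgeR 4.0.16 (R 4.3.3): filterByExpr with a minimum count of 10, TMM factors, robust quasi-likelihood fit on genotype, Benjamini-Hochberg adjustment over the 254 miRNAs kept. Arm ratios were tested with limma 3.58.1, with a prior of 1 count on average, for hairpins whose arms each summed to 10 counts or more in WT and in san:san. DESeq2 1.42.0, other scalings, filters, thinning (20 draws), a replicate block and leaving out each library were alternatives. Full values were given to the 12 called members of smallest adjusted p, the 6 tested of highest mean CPM, the 6 not called of highest mean CPM, the hairpins of the arm test and, as counts, the 8 untested of highest sum; miR-154-3p, miR-382-3p, miR-376b-5p, miR-376a-5p and miR-299 were added after their values were seen. Both procedures were tested on simulated counts. Columns from samples outside the series numbered 0.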

Additional observations from a re-analysis of the deposited data

How the results depend on the processing

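Low depth in WT limits these results: 13 of the 28 tested members were under the filter in at least 1 WT library. The number of members higher, 18, was 7 with total counts and 9 with DESeq2. It was 2 of 3 tested with at least 10 counts in every library and 4 of 6 in thinned libraries (medians over 20 draws). Without single libraries it was 8 to 18 (8 without WT replicate 2, the cause was not tested). It was 13 with RLE factors, 16 with TMMwsp, 20 of 51 without a filter and 17 with identical names merged. The filters and the thinning left fewer members to test. The number lower was 0 in each of these. Neighbours higher, 4, were 2 with total counts, 2 with DESeq2, 0 with at least 10 counts in every library, 0 in thinned libraries (both with 0 tested) and 3 to 4 without single libraries. The cluster share was 1.55% in WT and 3.18% in san:san once the 5 most abundant miRNAs were left out of the totals, and 1.98% in san:san with identical names merged, since both shrink the total. It was 1.13% to 1.22% in WT and 1.88% to 1.93% in san:san without single libraries. Cluster hairpins with a changed arm ratio were 0, and 0 to 1 without single libraries. Signs turned with total counts for miR-382-5p (-0.15) and miR-410-3p (-0.0136). Of the members' other values under alternatives, 46 no longer passed the threshold, 4 newly passed it and the rest kept direction and side.

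The labels do not say whether same-numbered libraries are paired, and correlations over 3 libraries per genotype cannot decide it. Same-numbered deviations correlated at 0.09, -0.07 and 0.25. The last, of the replicates 3, was the highest of all pairs, while WT replicate 1 correlated best with san:san replicate 2 (0.15). With the replicate block 17 members were higher instead of 18 (35.4% of all tested). For the arm ratio 0 of 4 cluster hairpins changed, where 6 of all 41 hairpins tested did.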

Other observations

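miR-134, named here after its values were seen, was rare: miR-134-5p, which acts in dendritic spines, had 1, 0 and 2 counts in WT against 2, 7 and 2 in san:san, and miR-134-3p had 0 in WT and 5 over san:san. The summed share of the neural marker miRNAs was lower in san:san, where 3 of 4 tested fell and 1 rose (29.5% and 34.6% of all tested). Among them miR-9-3p had 34, 43 and 28 counts in WT against 2, 2 and 1 in the deeper san:san libraries.

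Base composition differed little between the cluster and the rest. Sequences were matched for 208 of the 254 tested miRNAs (81.9%), and the median GC content was 45.5% for 26 tested members and 47.8% for the others. Over miRNAs, which share the 6 libraries, Spearman's rho of GC content with the fold change was -0.23 for all and -0.07 for members. The 58 other miRNAs within the members' middle range of GC content (36.8% to 47.6%) had a median log2 fold change of 0.28, with 23 higher and 16 lower.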
